A study of Mus musculus with 8 samples.

Results

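Matrix metalloproteinases and their tissue inhibitors (TIMPs) are 10 of the 19938 genes measured in an array experiment on mouse aortic smooth muscle cells: Mmp2, Mmp3, Mmp9, Mmp10, Mmp13, Mmp14, Mmp19, Timp1, Timp2 and Timp3. They were taken by name, each through the probe set with its gene symbol alone; each of the 10 genes had 1 such probe set. The tested cultures were primary aortic smooth muscle cells of the C57Bl6 strain at passage 3 to 4, kept for 24 h in DMEM that held 10% fetal calf serum and 100 nM jasplakinolide (4 arrays). The control cultures were the same cells, kept for the same time in the same medium without the compound (4 arrays). Jasplakinolide is a sponge-derived cyclic peptide that enters cells and stabilises filamentous actin. Whether replicates were separate cultures or animals is not given in the labels, so the spread behind each p may be technical only.

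Matrix metalloproteinases are zinc endopeptidases that are made as inactive proenzymes and, once activated, cleave collagens, basement membrane and other matrix proteins. TIMPs bind active metalloproteinases and block them. In the artery wall, smooth muscle cells are a known source of both, and the balance of the proteases and their inhibitors is studied in remodelling, intimal growth and aneurysm. Transcripts, as measured here, say nothing of activation or of the amount of inhibitor bound.

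The values were log2 expression levels after robust multi-array averaging (RMA). On the main axis of variation jasplakinolide arrays 1 to 3 lay between -4.64 and 4.71 and jasplakinolide 4 at 19.4, while the control arrays were spread from -14.3 to 12.1 with control 2 at the upper end. Values without jasplakinolide 4 and control 2 together are given where a call or a direction changed. Of the 14 contractile smooth muscle markers 9 rose with jasplakinolide (7 or 8 with any 1 array left out), and their mean level was 10.6 to 10.8 on jasplakinolide arrays and 10.0 to 10.1 on control arrays. The 9 were Acta2 (log2 difference 0.25), Tagln (0.55), Lmod1 (0.68), Tpm2 (0.76), Myh11 (0.81), Actg2 (0.93), Synpo2 (0.98), Cnn1 (1.34) and, with the largest difference of the list, Kcnmb1. Acta2 (smooth muscle actin), Tagln (transgelin) and Cald1 (caldesmon) lay at 13.66, 13.10 and 12.67 in jasplakinolide cultures and 13.41, 12.55 and 12.54 in control cultures. The 12 endothelial markers were as bright, with a list mean of 10.7 to 10.8 on jasplakinolide arrays and 10.9 on control arrays. On control arrays that was above the list mean of the contractile markers, and on jasplakinolide arrays the ranges of the list means overlapped. The brightest were Emcn, Cdh5 and Eng (13.36, 13.09 and 12.62 with jasplakinolide, 13.41, 13.17 and 12.66 in control). One of the 12, Robo4, fell (-0.41 ± 0.06, SE; limma adjusted p = 0.0170); it did not pass without jasplakinolide 1, jasplakinolide 2, control 3 or control 4, and with the replicate number as a block 3 of the 12 were lower. Of the 12, 10 lay below 0 and 5 had an unadjusted p under 0.05 in limma. Of all genes, 56.4% lay above 0, 8.87% had an unadjusted p under 0.05, and 1.08% were lower past the test with the block. Mean levels were 7.77 to 7.88 and 7.76 to 7.84 for 12 macrophage markers, 8.76 to 8.83 and 8.82 to 8.95 for 9 adventitial fibroblast markers, and 5.81 to 5.96 and 5.72 to 5.91 for 8 neutrophil markers, on jasplakinolide and control arrays in that order. None of these passed (4, 4 and 0 of them had an unadjusted p under 0.05 in limma, beside 8.87% of all genes). With the block the macrophage marker Cd68 and the fibroblast marker Dcn were lower. Their brightest genes differed by 0.17 (Lyz2), 0.09 (C1qb) and -0.24 (Cd68) for macrophages, by -0.22 (Cd34), -0.54 (Dcn) and 0.19 (Gsn) for fibroblasts, and by 0.07 (Elane), 0.17 (Mpo) and -0.03 (Csf3r) for neutrophils. In bulk RNA, fewer cells of a type and less RNA per cell cannot be told apart, and the part of these cell types in the metalloproteinase signal was not tested.

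None of the 10 genes passed the test between jasplakinolide and control cultures. The test was limma across all 19938 genes, and a gene passed at a Benjamini-Hochberg adjusted p under 0.05. In that fit 154 genes passed, 0.772% of all genes, 87 of them higher (0.436%) and 67 lower (0.336%; 137 higher and 162 lower after cyclic loess normalization); with the replicate number as a block 377 passed, 1.89% (0.813% higher and 1.08% lower), and again none of the 10. At an unadjusted p under 0.05 the count was also 0 of the 10, where 8.87% of all genes passed. With the block 3 of the 10 had an unadjusted p under 0.05, namely Timp3 (0.00313), Mmp19 (0.00485) and Mmp3 (0.0137), beside 15.1% of all genes, and their limma adjusted p was 0.0919, 0.112 and 0.186. The median log2 difference of the 10 genes, jasplakinolide minus control, was -0.02, beside 0.01 for all genes. With the block the SE of each of the 10 genes was smaller. It was 0.046 for Timp3, 0.044 for Mmp19 and 0.063 for Mmp3, beside 0.100, 0.111 and 0.123 without it. The SEs and intervals given per gene below are from the fit without the block. In that fit the 95% intervals of the 10 differences reached no lower than -0.49 (Mmp3, 0.713-fold) and no higher than 0.19 (Mmp13, 1.14-fold). The plot of the signal of each gene on each array shows these values.

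**Figure D1:**
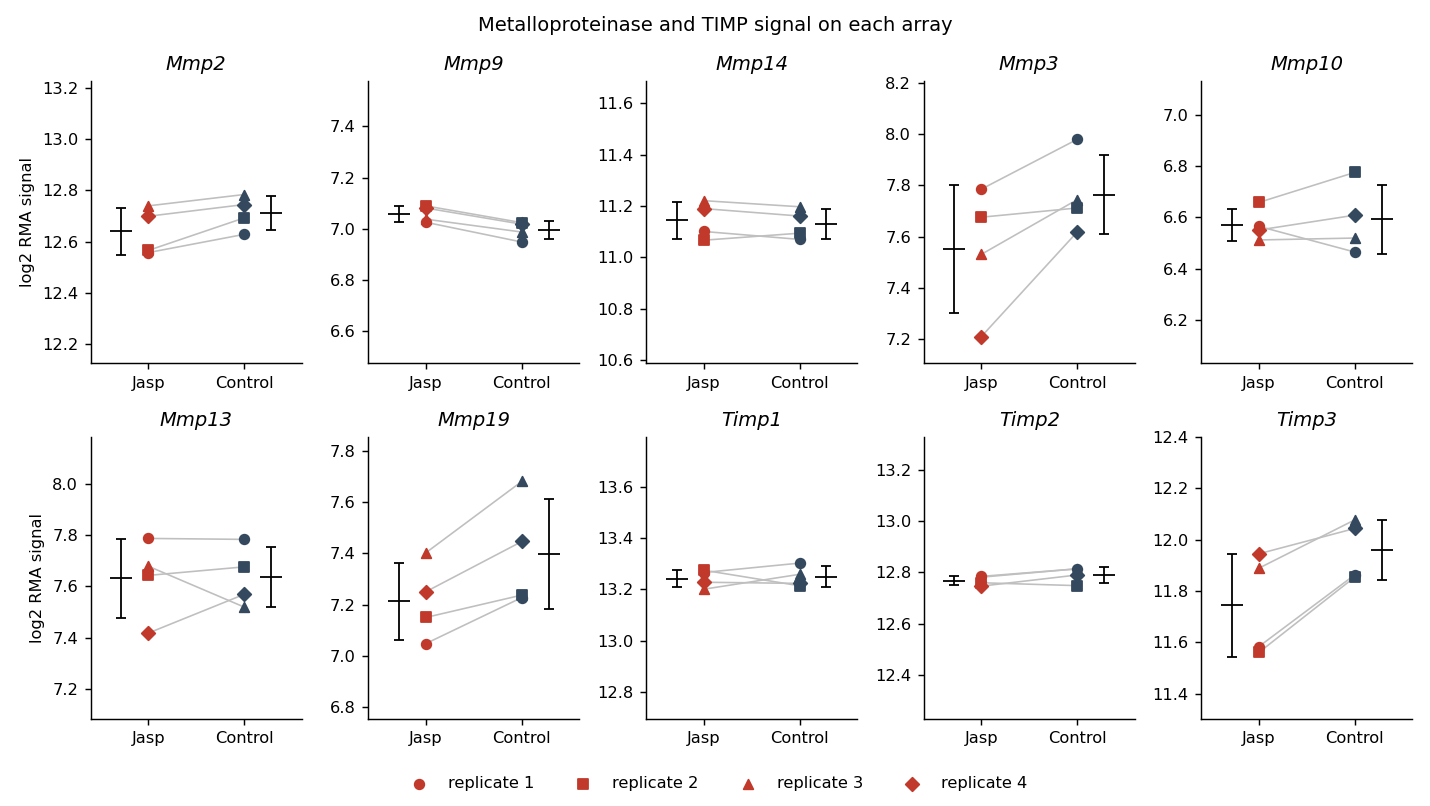
Log2 RMA signal of the 10 genes on each array, jasplakinolide (Jasp, red) left and control (dark) right; symbols mark the replicate number, grey lines join arrays of the same number, and horizontal bars with whiskers give the group mean and SD (n = 4 each). Every panel spans 1.1 log2 units. The groups overlap in all panels but that of Mmp9, and arrays of the same number tend to be high or low together.

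The gelatinases come first. Mmp2, gelatinase A, which degrades denatured collagen and type IV collagen and is made constitutively by smooth muscle cells, had 12.56, 12.57, 12.74 and 12.70 log2 on jasplakinolide arrays 1 to 4 and 12.63, 12.69, 12.78 and 12.74 log2 on control arrays 1 to 4. The groups overlapped, and in both of them arrays 3 and 4 were the highest. The means were 12.64 ± 0.09 and 12.71 ± 0.07 log2 (SD, n = 4 each), a difference of -0.07 ± 0.06 (SE; 95% interval -0.20 to 0.06; limma adjusted p = 0.843). With 1 array left out it ran from -0.11 (without jasplakinolide 3) to -0.04 (without jasplakinolide 1).

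Mmp9, gelatinase B, had 7.03, 7.09, 7.04 and 7.08 log2 with jasplakinolide and 6.95, 7.02, 6.99 and 7.02 log2 in control. It was the only one of the 10 genes whose groups did not overlap, as was so for 6.91% of all genes; jasplakinolide 1 was lowest in its group and control 2 and 4 highest in theirs, next to each other in level. The difference was 0.06 ± 0.04 (SE; 95% interval -0.03 to 0.16; limma adjusted p = 0.775), a ratio of means of 1.05-fold. The exact permutation test over arrays, two-sided, gave p = 0.0286, the smallest that 4 against 4 arrays allow, with no adjustment for the genes tested. Mmp14, the membrane-anchored MT1-MMP, which activates pro-MMP2 at the cell surface, had 11.10, 11.07, 11.22 and 11.19 log2 with jasplakinolide and 11.07, 11.09, 11.20 and 11.16 log2 in control. Arrays 3 and 4 were the highest in each group and the groups overlapped almost fully, with a difference of 0.01 ± 0.05 (SE; 95% interval -0.10 to 0.13; limma adjusted p = 0.972).

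Mmp3, Mmp10 and Mmp13 lie in a run of 10 metalloproteinase genes on mouse chromosome 9, in the order Mmp13, Mmp12, Mmp1b, Mmp3, Mmp1a, Mmp10, Mmp8, Mmp27, Mmp20 and Mmp7, as RefSeq annotates GRCm38.p6. Promoters of such genes are textbook targets of AP-1, the dimers of Fos and Jun family proteins. The 100 bases before the annotated start of each of the 3 genes are shown, 5′ to 3′ on the plus strand, because they hold the features that the 3 genes have in common; capitals mark the AP-1 element (TGAGTCA, searched on both strands, so it reads TGACTCA where it lies on the minus strand) and the TATA element (TATAAA, both strands). The sequences are RefSeq's, from build GRCm38.p6, at chr9:7445722-7445821 (Mmp3), chr9:7502242-7502341 (Mmp10) and chr9:7272414-7272513 (Mmp13).
Mmp3: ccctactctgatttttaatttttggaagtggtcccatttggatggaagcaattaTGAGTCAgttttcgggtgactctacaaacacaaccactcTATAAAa
Mmp10: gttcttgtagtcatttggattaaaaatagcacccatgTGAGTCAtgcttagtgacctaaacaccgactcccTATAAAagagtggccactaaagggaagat
Mmp13: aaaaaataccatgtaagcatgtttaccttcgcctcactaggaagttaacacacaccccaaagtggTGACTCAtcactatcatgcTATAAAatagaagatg
The AP-1 element began 46, 63 and 35 bases before the annotated start of Mmp3, Mmp10 and Mmp13, and each was followed by the TATA element. Within windows of 250 bases before to 50 after the start, 5.20% of 32851 RefSeq promoters held the AP-1 element, 13.6% the TATA element and 0.941% both. Of the 7 of the 10 genes matched in that table, these 3 held each element and Mmp14, Timp1, Timp2 and Timp3 held neither; Mmp2, Mmp9 and Mmp19 were not matched. None of the 7 held a CArG box, the element bound by serum response factor, which 1.63% of all promoters held. A match is a run of letters and not a measured binding site.

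Mmp3, stromelysin-1, which degrades many matrix proteins and activates other proenzymes, had 7.78, 7.68, 7.53 and 7.21 log2 with jasplakinolide and 7.98, 7.71, 7.74 and 7.62 log2 in control. The lowest value was that of jasplakinolide 4, and replicate 1 was the highest in both groups. The means were 7.55 ± 0.25 and 7.76 ± 0.15 log2 (SD, n = 4 each), and the difference was -0.21 ± 0.12 (SE; 95% interval -0.49 to 0.06; limma adjusted p = 0.709). It was larger than the SD of the control arrays and smaller than that of the jasplakinolide arrays, and without jasplakinolide 4 it was -0.10.

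Mmp10, stromelysin-2, had 6.57, 6.66, 6.51 and 6.55 log2 with jasplakinolide, all within the range of the control arrays (6.46, 6.78, 6.52 and 6.61 log2). The difference was -0.02 ± 0.07 (SE; 95% interval -0.18 to 0.14; limma adjusted p = 0.971). Mmp13, collagenase 3, which cleaves fibrillar collagen, had 7.79, 7.64, 7.68 and 7.42 log2 with jasplakinolide and 7.78, 7.68, 7.52 and 7.57 log2 in control, again with replicate 1 the highest in both groups. The difference was -0.01 ± 0.09 (SE; 95% interval -0.20 to 0.19; limma adjusted p = 0.996). The 3 genes with the AP-1 and TATA elements thus had no member past the test. None of the 10 genes of the run on chromosome 9 passed either, though several of them gave low signal, as described below. Their differences ran from -0.21 (Mmp3) to 0.13 (Mmp12, macrophage elastase), and the smallest unadjusted p in limma was 0.0982 (Mmp1a).

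Mmp19, a metalloproteinase of basement membrane substrates, had 7.05, 7.15, 7.40 and 7.25 log2 with jasplakinolide and 7.23, 7.24, 7.68 and 7.45 log2 in control. Arrays 3 and 4 were the highest in each group, and the groups overlapped. The means were 7.21 ± 0.15 and 7.40 ± 0.21 log2 (SD, n = 4 each), and the difference was -0.19 ± 0.11 (SE; 95% interval -0.43 to 0.06; limma adjusted p = 0.732). Without control 3 it was -0.09. The probe sets of Mmp3, Mmp9, Mmp10, Mmp13 and Mmp19 gave low signal: between 9 and 77 of 1027 olfactory receptor genes, which smooth muscle is not known to express strongly, had a higher mean signal than each of them, and none had a higher one than Mmp2, Mmp14 or the TIMPs. In the run on chromosome 9, Mmp1a, Mmp1b, Mmp7, Mmp8, Mmp10, Mmp20 and Mmp27 had mean signals from 4.11 (Mmp1b) to 6.58 log2 (Mmp10). All of these lay below 6.76 log2, the 95th percentile of the olfactory receptor genes. Probe sets differ in response, so neither comparison is a detection call. How much of the signal of these dim probe sets was background was not tested.

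Of the inhibitors, Timp1, a secreted inhibitor with a broad range of target metalloproteinases, had 13.27, 13.28, 13.20 and 13.23 log2 with jasplakinolide and 13.30, 13.21, 13.26 and 13.22 log2 in control. The values interleaved, with a difference of -0.01 ± 0.04 (SE; 95% interval -0.10 to 0.09; limma adjusted p = 0.983). Timp2, which inhibits MMP2 and also takes part with MMP14 in its activation, had 12.78, 12.76, 12.78 and 12.75 log2 with jasplakinolide and 12.81, 12.75, 12.81 and 12.79 log2 in control, and the groups overlapped. The difference was -0.02 ± 0.04 (SE; 95% interval -0.11 to 0.07; limma adjusted p = 0.948). These intervals bound a change of the Timp1 mean to 0.931-fold to 1.06-fold, and of the Timp2 mean to 0.925-fold to 1.05-fold.

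Timp3, the inhibitor that binds to the matrix and also blocks ADAM and ADAMTS proteases, differed by about as much as Mmp3. These were the 2 largest differences of the 10 genes in the main fit, and the order of the genes depended on the arrays and the processing. Without jasplakinolide 4 Mmp3 was -0.10 and Mmp19 -0.20. With array weights Mmp3 was -0.06, Mmp2 -0.12 and Mmp19 -0.27. Timp3 had 11.58, 11.56, 11.89 and 11.95 log2 with jasplakinolide and 11.86, 11.85, 12.08 and 12.04 log2 in control. In each group arrays 3 and 4 lay above arrays 1 and 2, and the groups overlapped because jasplakinolide 3 and 4 lay above control 1 and 2. The means were 11.74 ± 0.20 and 11.96 ± 0.12 log2 (SD, n = 4 each), and the difference was -0.22 ± 0.10 (SE; 95% interval -0.44 to 0.01; limma adjusted p = 0.592), 0.861-fold. Each jasplakinolide array was lower than the control array of its number, by 0.28, 0.29, 0.19 and 0.10 log2 for numbers 1 to 4. The same held in all 4 pairs for Mmp2, Mmp3 and Mmp19, and Mmp9 was higher in all 4; of all genes, 24.6% kept 1 direction in all 4 pairs, 11.5% being lower and 13% higher.

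The replicate number accounted for more of the variation of most of these genes than the treatment did, as the plot of variation shares shows. Of the sum of squares over the 8 arrays, the replicate number took 94.2% for Mmp14, 80.0% for Mmp10, 78.3% for Mmp13 and 74.6% for Mmp2, and the treatment 1.48%, 1.24%, 0.0502% and 20.9%; Mmp19 had 71.6% for the replicate number. The replicate number has 3 degrees of freedom and the treatment 1, so the shares are read against those of all genes, whose medians were 57.9% for the replicate number and 9.16% for the treatment; 1.92% of genes had a higher share for the replicate number than Mmp14. For Timp3 the shares were 58.8% and 36.4%, for Mmp3 64.0% and 26.0%, for Timp2 60.3% and 22.3%, and for Timp1 50.4% and 1.31%. Mmp9 was the exception, with 43.4% for the replicate number and 55.4% for the treatment. The labels give no scan or extraction batch, so what the numbers stand for was not tested.

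**Figure D2:**
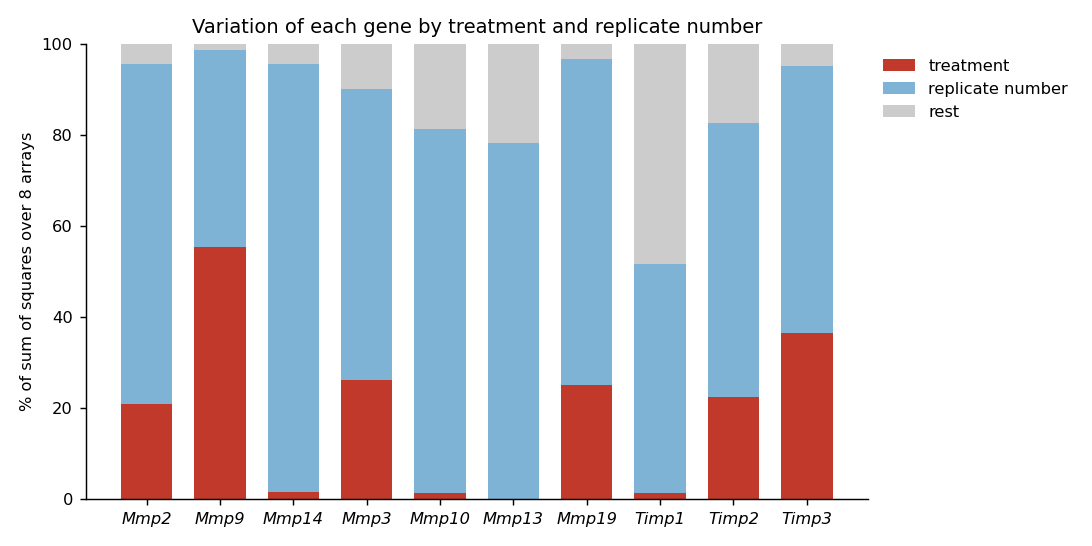
Shares of each gene's sum of squares over the 8 arrays, in percent, taken by treatment (red), by replicate number (blue) and by the rest (grey). The replicate number takes a larger share than treatment in every gene but Mmp9, and 94.2% in Mmp14.

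Among themselves, Timp3, Mmp2, Mmp19 and Mmp14 shared the order of the arrays most closely. Over the 8 arrays Pearson's r was 0.94 between Mmp2 and Timp3 (Spearman's rho 0.93), 0.90 between Mmp2 and Mmp19 (1), 0.85 between Mmp19 and Timp3 (0.93) and 0.80 between Mmp2 and Mmp14 (0.74). Mmp3 and Mmp13 correlated at 0.77 (0.60), whereas Mmp10, which lies in the same run of genes, correlated at -0.08 (-0.17) with Mmp3 and -0.03 (-0.17) with Mmp13. These values describe arrays that share replicate numbers and treatment and are not independent, so no p is given.

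Genes whose pattern over the 8 arrays was most like that of the 3 members with the largest differences were sought among genes with an SD over arrays of at least 0.2. For Timp3 they were Vcan, the large proteoglycan versican (Pearson's r 0.995, Spearman's rho 1), Cd109, a membrane glycoprotein that binds TGF-beta (0.986 and 1), and Cyp39a1, an oxysterol hydroxylase (0.982 and 1). Vcan had 9.43, 9.36, 10.09 and 10.23 log2 with jasplakinolide and 9.98, 9.97, 10.53 and 10.53 log2 in control, and it ranked the 8 arrays as Timp3 did. With the replicate block Cd109 (-0.24, limma adjusted p = 0.0424) and Cyp39a1 (-0.24, adjusted p = 0.0375) passed, both lower with jasplakinolide, as were 1.08% of all genes. Genes picked for the pattern of Timp3 share its direction by that choice, so these calls are no separate evidence on Timp3. Timp3 itself had an adjusted p of 0.0919 with the block. For Mmp3 the nearest were Galc, a lysosomal galactosidase (0.987 and 0.952), Adgrg2, an adhesion receptor (0.987 and 0.929), and Gpm6a, a membrane glycoprotein (0.986 and 0.881). For Mmp19 they were Scp2, a sterol carrier protein (0.972 and 0.929), Clec14a, a lectin of endothelial cells (0.971 and 0.881), and Tubb3, a tubulin (0.962 and 0.976). The search covered 1220 genes for Timp3 and Mmp19 and 1219 for Mmp3, so high values of r arise among so many genes, and these 9 were picked for it.

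Of the 16 other measured metalloproteinase and TIMP genes, 1 rose and 15 did not pass. Mmp17, the membrane-anchored MT4-MMP, had 9.12, 9.12, 9.50 and 9.43 log2 with jasplakinolide and 8.60, 8.72, 8.84 and 8.76 log2 in control. Every jasplakinolide array lay above every control array, and in both groups arrays 3 and 4 were the highest. The means were 9.29 ± 0.20 and 8.73 ± 0.10 log2 (SD, n = 4 each), a rise of 0.56 ± 0.10 (SE; 95% interval 0.34 to 0.78; limma adjusted p = 0.0370), 1.48-fold. With all 8 arrays Mmp17 also passed with the replicate block (limma adjusted p = 0.0144) and after cyclic loess normalization (0.0247). The call rested on all 8 arrays: with any 1 left out the difference stayed between 0.49 and 0.62, and the adjusted p was 0.0591 to 0.128. Of all genes, 43 to 150 passed with 1 array left out, beside 154 in the main fit. Without control 2 and jasplakinolide 4 together the Mmp17 difference was 0.51 (adjusted p = 0.122). Of the 14 contractile markers 13 lay above 0, 9 of them past the test, and 1 lay below (-0.16), with a median of 0.61. Of all genes, 56.4% lay above 0. The part of these markers in the Mmp17 result was not tested.

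**Figure D3:**
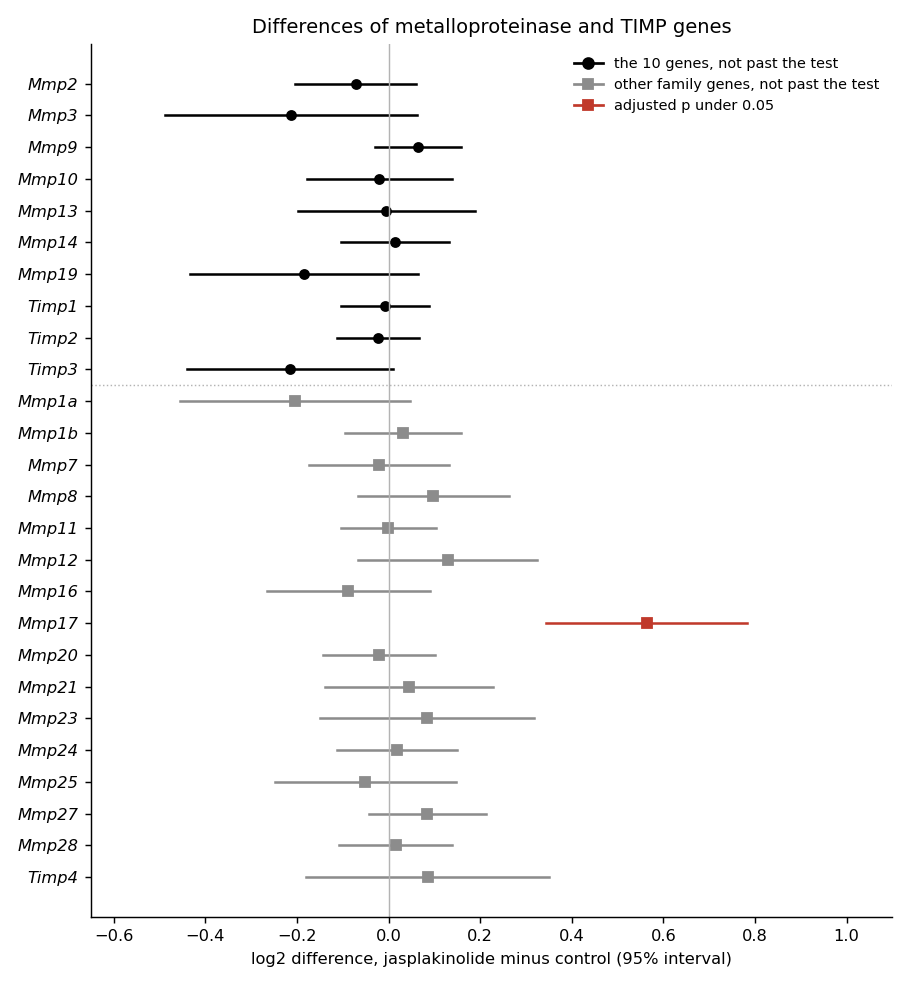
Log2 difference, jasplakinolide minus control, with limma's 95% interval, for the 10 genes (black circles, above the dotted line) and the 16 other measured metalloproteinase and TIMP genes (grey squares); red marks an adjusted p under 0.05. Only Mmp17, at 0.56, passed, and the intervals of all 10 genes, from the fit without the replicate block, include 0.

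The 15 other genes of the family included Mmp1a, an interstitial collagenase of the run on chromosome 9 with low signal (-0.20 ± 0.11, SE), and Mmp12 (0.13 ± 0.09). The median of the 16 was 0.02, with 10 above 0 and 6 below. Control 1 set the Mmp1a value, since it had 6.22 log2 and the other control arrays 5.74 to 5.79 log2, and without it the difference was -0.09. Jasplakinolide 4 set that of Mmp12, which was 0.03 without it.

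Of 24 measured activators, cofactors and other inhibitors of metalloproteinases none passed. In limma 8 of the 24 had an unadjusted p under 0.05, a larger share than the 8.87% of all genes. The median of the 24 was 0.01, with 13 above 0 and 11 below. The smallest limma adjusted p of the list was 0.109. It belonged to a gene other than Tfpi2, Pcsk6 and Plaur, which had the largest differences. Tfpi2, an inhibitor of plasmin and related serine proteases, differed by -0.64 ± 0.23 (SE; limma adjusted p = 0.391), with 9.95, 9.81, 9.31 and 8.79 log2 with jasplakinolide and 10.40, 10.15, 9.98 and 9.89 log2 in control; without jasplakinolide 4 it was -0.41. Pcsk6, a proprotein convertase, differed by 0.25 ± 0.11, and Plaur, the receptor that holds the plasminogen activator urokinase at the cell surface, by 0.22 ± 0.09. Plaur had 11.61, 11.59, 11.39 and 11.36 log2 with jasplakinolide and 11.44, 11.36, 11.15 and 11.10 log2 in control, so that arrays 1 and 2 were the highest in each group and the groups overlapped. With the replicate block Plaur passed (limma adjusted p = 0.0468), higher in 4 of 4 pairs.

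Of 18 measured transcription factors that act on metalloproteinase promoters, Fos and Jun family members among them, none passed, 2 had an unadjusted p under 0.05, and the median was -0.0045. The largest differences were those of Egr1, a zinc finger factor (0.35 ± 0.12, SE), and of the ETS family genes Ets2 (-0.13 ± 0.07) and Elk3 (-0.10 ± 0.04); without control 3 that of Ets2 was -0.08. Of 14 measured cytokines, growth factors and other inducers of metalloproteinase transcription, none passed and 5 had an unadjusted p under 0.05 (8.87% of all genes); 13 lay above 0 (56.4% of all genes), with a median of 0.09. Il1a, the cytokine interleukin 1 alpha, differed by 0.41 ± 0.26, Ereg, the growth factor epiregulin, by 0.36 ± 0.08 and Lif, a cytokine of the interleukin 6 family, by 0.35 ± 0.15 (SE). Ereg had 11.64, 11.55, 11.49 and 11.46 log2 with jasplakinolide and 11.36, 11.27, 11.04 and 11.04 log2 in control, with every jasplakinolide array above every control array (limma adjusted p = 0.0944). Il1a had 7.33, 7.14, 6.53 and 6.32 log2 with jasplakinolide and 6.96, 6.58, 6.04 and 6.12 log2 in control. Without jasplakinolide 1 the Il1a difference was 0.24. The Il1a groups overlapped, and arrays 1 and 2 were the highest in each, the opposite order to that of Timp3 and Mmp19. With the replicate block Il1a and Ereg passed (limma adjusted p = 0.0424 and 0.0274), higher in 4 of 4 pairs each.

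None of 18 measured matrix substrates passed, 1 had an unadjusted p under 0.05, and the median was 0.06. Vcan differed by -0.48 ± 0.22 (SE; limma adjusted p = 0.592) and, lower in 4 of 4 pairs, had an adjusted p of 0.0251 once the replicate number was a block. Postn, the matricellular protein periostin, differed by -0.20 ± 0.26 and Col3a1, type III collagen, by 0.13 ± 0.11. With 1 array left out Postn ran from -0.43 (without jasplakinolide 4) to -0.05 (without jasplakinolide 1), and Col3a1 from 0.05 (without jasplakinolide 4) to 0.21 (without jasplakinolide 1).

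**Figure D4:**
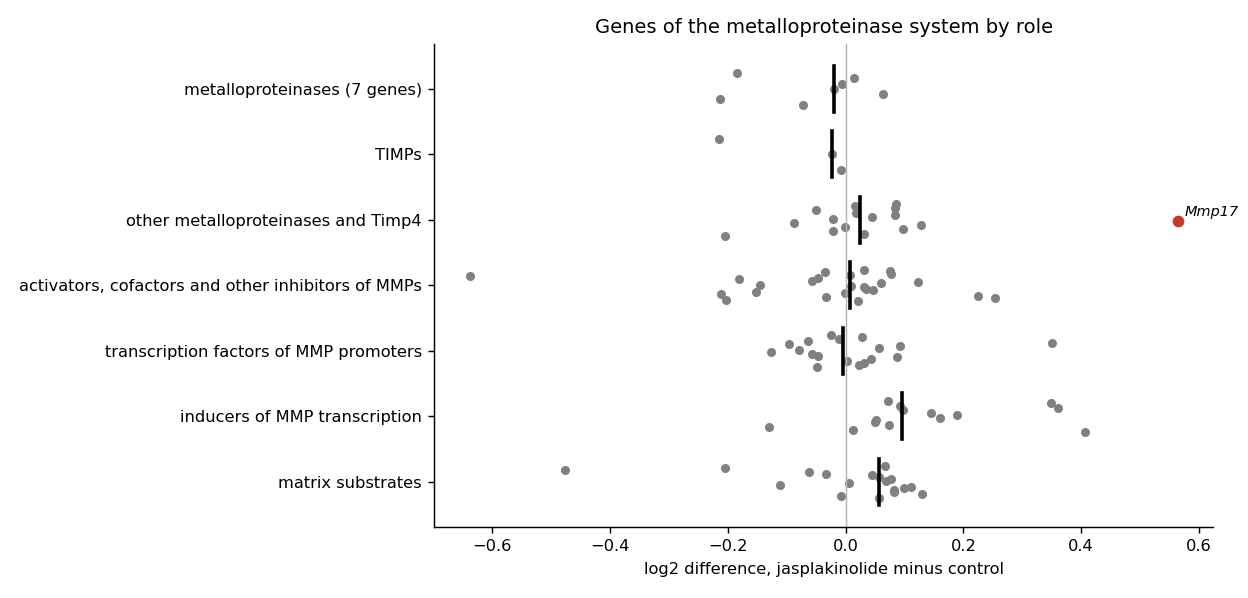
Log2 differences, jasplakinolide minus control, of the 7 metalloproteinases and 3 TIMPs described here and of genes grouped by role; each point is a gene, black lines mark the list medians and the red point an adjusted p under 0.05. List medians lie between -0.02 and 0.09, and Mmp17 alone is red.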

How the data were processed

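Total RNA was hybridised to 8 Affymetrix arrays. The authors deposited log2 values for 35556 probe sets, from RMA in Affymetrix Expression Console according to the submitters' processing notes, which name no version here. RMA brings the distributions of arrays close to each other, so a shift shared by all genes may not be visible. The medians over all probe sets still ran from 7.30 log2 (control 3) to 7.39 log2 (jasplakinolide 4). Probe sets with 1 symbol in the platform annotation (21789) were kept, those with several (1621) or none (12146) left out, and the one with the highest mean over all arrays was used per gene, which gave 19938 genes. No dim probe sets were filtered out. Groups came from sample titles. The fit used limma 3.58.1 (R 4.3.3), two-sided, without covariates, with 6 residual and 3.43 prior degrees of freedom. On simulated data it recovered 27.8% of genes changed by 0.25 log2, 75.7% of those changed by 0.5 and 97.6% of those changed by 1. A change of the size seen for Timp3 or Mmp3 could thus be missed. The simulated noise was independent between arrays, without the replicate structure of these data. Figures used matplotlib 3.10.9. Sequences were read from a RefSeq table of GRCm38.p6.

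The 10 genes, the lists and the alternatives were chosen with earlier results of these data known. Besides the 10 genes, the text names the 3 largest differences per list (for markers, the 3 highest means), the list genes past the test, and the 3 nearest patterns of the 3 members with the largest differences. Listed genes without a value are not analysed here. Arrays with the same number deviated together from their group means (r 0.24 to 0.56 in all 4 pairs, -0.62 to 0.52 for other pairs). In the block fit the numbers were therefore taken, from the data and not the labels, to pair the samples. The main fit did not use this pairing, because the labels do not give it, and its SEs for the 10 genes are larger. The number of arrays limits the precision.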

Additional observations from a re-analysis of the deposited data

Results flagged for a closer look

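Among 25 genes, 4 values lay far from the other 3 arrays of their group, relative to its range, by Dixon's ratio; chance gives about 1 in 20 groups, and 50 were examined. Mmp12 was at 9.12 log2 on jasplakinolide 4, against 8.70 to 8.76 on the other jasplakinolide arrays. On control 1, Mmp1a was at 6.22 log2 (others 5.74 to 5.79), Mmp12 at 8.63 (8.72 to 8.73) and Col3a1 at 8.50 (8.75 to 8.81). None of the 10 described genes was among them.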

How the results depend on the processing

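None of the 10 genes passed in limma under any alternative run (5 of them remained to be tested among the brighter 50% of genes), and the lowest adjusted p was 0.0740, for Timp3 with array weights (-0.34). The exact permutation test, unadjusted, gave p = 0.0286 for Mmp9 (0.064), which follows from groups that do not overlap, as in 6.91% of all genes. For the other members it gave no p under 0.171 (Timp3). With the replicate block adjusted p was 0.0919 for Timp3, 0.112 for Mmp19 and 0.186 for Mmp3, and apart from the genes named with it in the text, the block changed no call of a named metalloproteinase-system gene. Genes past the threshold numbered 377 with the block, 296 among the brighter 50% of genes, 277 after another quantile normalization, 299 after cyclic loess, 358 with an intensity trend and robust prior, 457 with array weights, 45 at adjusted p under 0.01, and 43 to 150 with 1 array left out. Differences near 0 changed sign: with array weights Mmp10 was 0.0039, Mmp13 0.075, Mmp14 -0.030, Timp1 0.013 and Col3a1 -0.0011; after another quantile normalization Timp1 was 0.011; without control 2 and jasplakinolide 4 together, chosen after seeing the data, Mmp10 was 0.048, Mmp13 0.079 and Mmp14 -0.013; and with 1 array left out Mmp10 ran from -0.063 to 0.041, Mmp13 from -0.057 to 0.066, Mmp14 from -0.011 to 0.040 and Timp1 from -0.019 to 0.010. Of activators and inhibitors 1 passed with the block and 2 with array weights, of transcription factors 1 with array weights, of inducers 2 each with the block, among the brighter 50% and with the trend and 3 with array weights, and of substrates 1 with the block; of the other metalloproteinases 0 passed with any 1 array left out or without control 2 and jasplakinolide 4. The causes were not tested.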
